A study of Mus musculus with 8 samples.

Results

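The genes described here build and cap the actin-based thin filament of muscle: the tropomyosins Tpm1, Tpm2, Tpm3 and Tpm4, the tropomodulins Tmod1, Tmod2, Tmod3 and Tmod4, and the leiomodin Lmod2. They are 9 of the 19933 genes that the arrays measured through a transcript cluster (a gene-level set of probes) of their own. They were chosen by name, but with earlier results of these data known. A gene with several clusters was read through its brightest one. Whole hearts of 6-week-old male C57BL/6 mice on normal chow were compared between 4 animals deficient in HDAC3 (the design text calls them MCH3-KO, here KO) and 4 wild type animals (WT), with 1 Affymetrix Mouse Gene 1.0 ST array per heart. HDAC3 is a histone deacetylase that acts with nuclear receptor corepressors. The labels name neither the driver of the deletion nor the heart cells that lost the gene. All values are log2 intensities, all differences are KO minus WT on that scale, and the 4 arrays per group limit their precision.

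Tropomyosins are coiled-coil proteins that lie end to end along the actin filament, where troponin shifts them to open or close the binding sites for myosin. Tropomodulins bind the last tropomyosin and actin at the slow-growing (pointed) end and cap it, while leiomodins, their relatives, nucleate and lengthen filaments at the same end. In heart muscle the balance between the cap and the leiomodin is known to set thin filament length.

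The labels were checked first on the deleted gene. Hdac3 averaged 8.57 ± 0.05 in KO hearts and 10.10 ± 0.08 in WT hearts (SD, n = 4 each), with KO hearts between 8.50 and 8.59 and WT hearts between 10.04 and 10.20. Which exons the probes cover relative to the deletion was not checked. The 8 array medians lay between 54.1 and 56.5 on the linear scale. In limma 24.6% of the 14950 genes tested passed at 0.05 after Benjamini-Hochberg adjustment, 10.8% higher and 13.9% lower in KO hearts, and the median difference of all genes was -0.01. The groups did not overlap for 28.6% of genes.

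All 9 genes passed the filter on dim genes and were tested. Of these, 4 rose (Tpm2, Lmod2, Tmod3, and Tpm3 in its brightest cluster), 2 fell (Tmod4 and Tmod1) and 3 did not pass (Tpm1, Tpm4 and Tmod2). Thus 6 of 9 were called where 24.6% of all genes were. That share includes many dimmer genes. With the dim filter at the 50th percentile, which all 9 genes passed, 7 of 9 were called, as were 3678 of 9967 genes. For 5 of the 9 the groups did not overlap, as for 28.6% of all genes, again a share that includes many dimmer genes. The median difference of the 9 genes was 0.16. The beta-tropomyosin gene Tpm2 was 2.44-fold higher in KO hearts, and the skeletal muscle tropomodulin gene Tmod4 fell to 56.7% of its WT level. The cardiac cap gene Tmod1 fell to 79.1% of WT, while Lmod2 was 1.38-fold higher. Tpm1, the main tropomyosin gene of the adult heart, read 99.4% of WT.

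**Figure D1:**
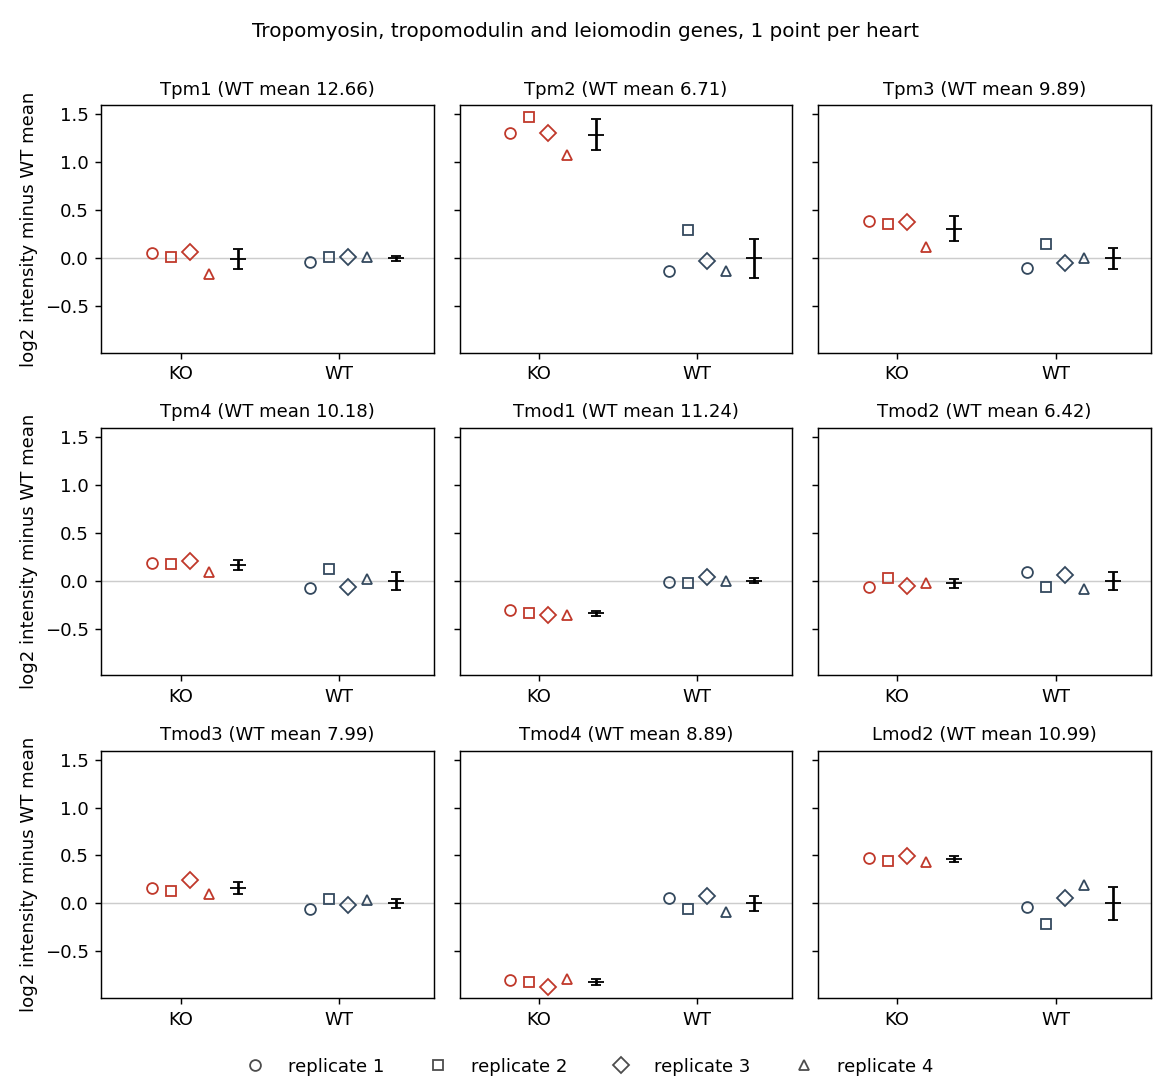
Log2 intensity of each gene minus its WT mean (vertical axis) in KO and WT hearts, 1 symbol per heart by replicate number, with the group mean and SD (n = 4) in black at the right of each group. Tpm2 and Lmod2 sit higher and Tmod4 and Tmod1 lower in every KO heart than in any WT heart, and Tpm1 and Tmod2 overlap.

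The start regions of the 4 genes with the smallest p are shown because these genes moved in opposite directions. Each line gives the 250 bases before the annotated start from RefSeq (GRCm38.p6), which lists a window for 8 of the 9 genes, Tmod3 being the one without an entry. No source used here gives the array's own build, so the windows serve as sequence only. Capitals mark CANNTG (the E-box, bound by myogenic factors), CATTCC (the MCAT element) and GGGCGG (the GC box), searched on both strands, with no overlap between them in these 4 windows.
Tpm2 (chr4:43523555-43523804, minus strand): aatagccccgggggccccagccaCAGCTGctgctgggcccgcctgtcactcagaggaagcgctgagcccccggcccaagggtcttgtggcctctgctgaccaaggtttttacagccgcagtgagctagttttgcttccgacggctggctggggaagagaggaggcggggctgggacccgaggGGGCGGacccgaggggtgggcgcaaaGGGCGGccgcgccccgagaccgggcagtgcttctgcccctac
Lmod2 (chr6:24597521-24597770, plus strand): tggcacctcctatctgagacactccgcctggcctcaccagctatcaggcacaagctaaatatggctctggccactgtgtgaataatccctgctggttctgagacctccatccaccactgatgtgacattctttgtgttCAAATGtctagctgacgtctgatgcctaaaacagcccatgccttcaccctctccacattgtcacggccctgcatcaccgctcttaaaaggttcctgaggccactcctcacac
Tmod4 (chr3:95124264-95124513, plus strand): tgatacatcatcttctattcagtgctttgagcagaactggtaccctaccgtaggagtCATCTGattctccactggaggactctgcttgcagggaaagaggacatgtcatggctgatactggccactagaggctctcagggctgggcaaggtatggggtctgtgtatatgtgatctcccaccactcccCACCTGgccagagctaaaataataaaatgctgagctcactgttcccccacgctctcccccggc
Tmod1 (chr4:46038972-46039221, plus strand): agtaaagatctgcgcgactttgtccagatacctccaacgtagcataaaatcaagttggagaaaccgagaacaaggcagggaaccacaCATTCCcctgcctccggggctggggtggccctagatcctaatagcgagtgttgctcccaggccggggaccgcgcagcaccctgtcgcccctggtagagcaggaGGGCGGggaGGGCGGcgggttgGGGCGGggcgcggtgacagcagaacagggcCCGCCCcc
The Tpm2 window holds 1 E-box and 2 GC boxes, that of Lmod2 holds 1 E-box, that of Tmod4 holds 2 E-boxes, and that of Tmod1 holds 1 MCAT element and 4 GC boxes. Over all 32851 windows of this length, 66.2% hold CANNTG, 12.6% hold CATTCC and 32.7% hold GGGCGG. The CArG box, bound by serum response factor, and the MEF2 site were found in none of the 10 windows listed for the 8 genes, against 1.5% and 2.9% of all windows. At such low shares none in 10 windows is the likely outcome. Only exact matches to these sites were searched, so inexact sites may be present. The share of G and C was 69.6% for Tpm2 and 64.0% for Tmod1, and 52.4% for Lmod2, for Tmod4 and for the median window. E-boxes and GC boxes were found both before genes that rose and before genes that fell.

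Among the tropomyosins, Tpm2 rose, Tpm3 rose in its brightest cluster, and Tpm1 and Tpm4 did not pass. Tpm2 encodes beta-tropomyosin, found in slow skeletal and smooth muscle and in the heart before birth. It read 8.01, 8.18, 8.01 and 7.78 in KO hearts 1 to 4, against 6.58, 7.01, 6.68 and 6.58 in WT hearts 1 to 4. The lowest KO heart lay above the highest WT heart, and WT replicate 2 stood above the other WT hearts. Tpm2 rose by 1.29 (SE 0.11, 95% interval 1.05 to 1.53, limma adjusted p = 2.19e-05), a difference larger in size than that of 99.4% of the genes tested. It passed under each of the 19 alternatives, with differences of 1.17 to 1.46.

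Tpm3 encodes the tropomyosin of slow skeletal fibres as well as forms found in most cells. Its brightest cluster read 10.28, 10.25, 10.26 and 10.01 in KO hearts 1 to 4, against 9.78, 10.04, 9.85 and 9.89 in WT hearts 1 to 4. KO replicate 4 lay just below WT replicate 2, so the groups overlapped. The difference was 0.31 (SE 0.08, 95% interval 0.14 to 0.48, limma adjusted p = 0.0147). When all 4 clusters of Tpm3 were averaged it became 0.18 and did not pass (adjusted p = 0.0622). The other clusters differed by 0.20 (cluster 10560000, adjusted p = 0.0583), 0.11 (cluster 10493633, adjusted p = 0.299) and 0.09 (cluster 10549979, adjusted p = 0.453) in the limma fit over 16223 clusters, of which 24.6% passed. The brightest cluster's difference was not shown to exceed theirs: the gaps were 0.11 to 0.22, with exact permutation p-values of 0.0286 to 0.229 and 0.114 to 0.229 after adjustment over 4 cluster pairs. Tropomyosin genes are close relatives, and probe signal shared between them was not tested. The 4 clusters were tied to Tpm3 by annotation. Where each lies on the genome was not checked, so the brightest may not read the Tpm3 gene itself.

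Tpm1 encodes alpha-tropomyosin, which makes up most tropomyosin of the adult mouse heart. It read 12.71, 12.67, 12.72 and 12.50 in KO hearts 1 to 4, against 12.62, 12.68, 12.67 and 12.67 in WT hearts 1 to 4. KO replicate 4 was the lowest of the 8 hearts, and the other KO hearts lay within 0.05 of the highest WT heart. The difference was -0.01 (SE 0.06, 95% interval -0.14 to 0.12, limma adjusted p = 0.947), and it was 0.043 without KO replicate 4. Differences were narrow among genes this bright: their SD was 0.18 over the 90 genes with a WT level of 12 to 13, and 0.30 over the 491 genes at 10 to 11. The cluster is a summary over the whole gene and does not separate the splice forms of Tpm1.

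Tpm4, a tropomyosin of non-muscle cells in mouse, read 10.37, 10.36, 10.39 and 10.28 in KO hearts 1 to 4, against 10.11, 10.30, 10.11 and 10.20 in WT hearts 1 to 4. Only WT replicate 2 reached into the KO range. The difference of 0.17 (SE 0.06, 95% interval 0.04 to 0.30) did not pass in limma (adjusted p = 0.0606), and it passed in 7 of 18 alternatives, not counting the fit without both KO replicate 4 and WT replicate 2, which was chosen after seeing the data. These include the fit that left out KO replicate 4 (0.19, adjusted p = 0.0475) and the one that left out WT replicate 2 (0.21, adjusted p = 0.0197), its lowest KO and highest WT heart, whose removal enlarges the difference by construction.

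The 4 tropomyosins shared an order among the hearts that the groups do not account for. In each of them KO replicate 4 was the lowest KO heart and WT replicate 2 the highest WT heart. The same held for 17.3% of all genes tested, so it is common on these arrays. The means of 5 of the 11 gene lists showed it too: those of macrophage, fibroblast, endothelial and cardiac muscle markers and of actin capping, severing and assembly genes. In the macrophage list, the one that differed most between the groups, it stood with KO replicate 4 at 1.05 and KO hearts 1 to 3 at 1.28 to 1.34, and with WT replicate 2 at 0.10 and the remaining WT hearts at -0.13 to 0.05. With both of these hearts left out, an alternative chosen after seeing the data, Tpm2 differed by 1.46, Tpm3 by 0.42 and Tpm4 by 0.23. Leaving out the lowest KO and the highest WT heart of a gene that is higher in KO enlarges its difference by construction, so these values lend it no support. In that fit 7 of the 9 genes and 24.9% of all genes passed.

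The tropomodulins moved in both directions: Tmod4 and Tmod1 fell, Tmod3 rose by a small amount and Tmod2 did not pass. Tmod4 is known as the tropomodulin of skeletal muscle. It read 8.10, 8.08, 8.03 and 8.11 in KO hearts 1 to 4, against 8.95, 8.84, 8.97 and 8.81 in WT hearts 1 to 4. The groups were separated by a wide gap, with an SD of 0.04 in KO hearts and 0.08 in WT hearts. Tmod4 fell by 0.82 (SE 0.05, 95% interval -0.94 to -0.70, limma adjusted p = 5.1e-06), larger in size than 98.1% of the genes tested, and it passed under each of the 19 alternatives.

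Tmod1, the tropomodulin of heart muscle and of red blood cells, was read by 2 clusters. The brighter (10504692) gave 10.94, 10.91, 10.89 and 10.89 in KO hearts 1 to 4, against 11.23, 11.22, 11.28 and 11.24 in WT hearts 1 to 4. Each group was tight, with an SD of 0.03 in KO and in WT hearts. The gene fell by 0.34 (SE 0.04, 95% interval -0.44 to -0.24, limma adjusted p = 0.000324). The dimmer cluster (10504690), which the platform annotation ties to a single transcript record, read 6.36, 6.34, 6.30 and 6.46 in KO hearts 1 to 4, against 6.60, 6.57, 6.63 and 6.70 in WT hearts 1 to 4. It separated the groups as well, with a difference of -0.26 (SE 0.05, adjusted p = 0.0054 over all clusters). The difference of the brighter cluster was lower by 0.08 than that of the dimmer, which did not pass an exact two-sided permutation test (p = 0.114, adjusted p = 0.152).

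Tmod3, the tropomodulin of most cell types, read 8.15, 8.12, 8.24 and 8.09 in KO hearts 1 to 4, against 7.93, 8.04, 7.97 and 8.03 in WT hearts 1 to 4. The groups did not overlap but lay close. Tmod3 rose by 0.16 (SE 0.05, 95% interval 0.04 to 0.27, limma adjusted p = 0.0475), and this call was fragile, since it passed in 8 of 18 alternatives, the fit without both KO replicate 4 and WT replicate 2 again not counted. It was lost without KO replicate 1 (adjusted p = 0.106), KO replicate 2 (0.0801), KO replicate 3 (0.119), WT replicate 1 (0.119), WT replicate 3 (0.101) or WT replicate 4 (0.0681). Tmod2, the tropomodulin of neurons, read 6.36, 6.45, 6.36 and 6.40 in KO hearts 1 to 4, against 6.52, 6.35, 6.48 and 6.34 in WT hearts 1 to 4. The groups overlapped, and the difference was -0.03 (SE 0.06, 95% interval -0.15 to 0.10, limma adjusted p = 0.783).

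Lmod2 encodes the leiomodin of heart muscle, which lengthens thin filaments at the end that Tmod1 caps. It read 11.46, 11.43, 11.48 and 11.42 in KO hearts 1 to 4, against 10.95, 10.77, 11.04 and 11.18 in WT hearts 1 to 4. The KO hearts were closely spaced (SD 0.03) and the WT hearts more spread (SD 0.17), with WT replicate 2 lowest, and no heart of one group reached the other. Lmod2 rose by 0.46 (SE 0.08, 95% interval 0.28 to 0.64, limma adjusted p = 0.00188). It passed under each of the 19 alternatives, with differences of 0.39 to 0.53.

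**Figure D2:**
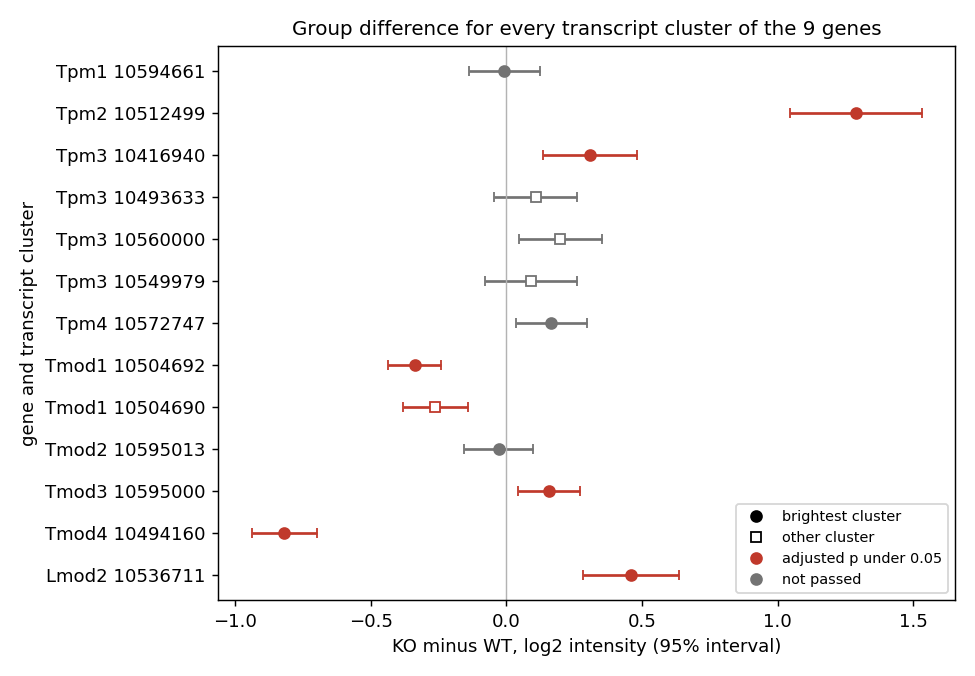
KO minus WT difference in log2 intensity (horizontal axis) with its 95% interval for each of the 13 transcript clusters of the 9 genes, from the limma fit over all clusters. Filled circles are the brightest cluster of a gene and open squares its other clusters; red marks an adjusted p under 0.05, as for Tpm2 at 1.29, Tmod4 at -0.82 and the 2 Tmod1 clusters at -0.34 and -0.26.

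Whether 2 genes differed unequally between the groups was tested on their per-heart log2 difference, with an exact two-sided permutation test for each of the 36 pairs. Its smallest p is 0.0286 with 4 hearts a group, and 28 pairs reached it (adjusted p = 0.0367). This adjusted p depends on how many pairs reach the smallest p, and the 28 pairs share genes and hearts. How many pairs drawn from all genes would reach it was not computed, so the count is not shown to be particular to these genes. The groups did not overlap for 28.6% of all single genes. The gap between Tmod1 and Lmod2 was one of them: Tmod1 minus Lmod2 was -0.54 in KO hearts and 0.26 in WT hearts, a shift of -0.80. Levels of different probes cannot be set against each other, so only the shift is interpretable. Tpm2 differed from each of the other 8 genes, by 0.83 (Lmod2) to 2.11 (Tmod4), and so did Tmod4, by 0.48 (Tmod1) to 2.11.

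Tpm1 was exceeded by Tpm3 by 0.32, by Tpm4 by 0.17 and by Tmod3 by 0.17, each at an adjusted p of 0.0367, so the shift of Tpm1 differed from that of the other 3 tropomyosins. The pairs that did not pass were 8: Tpm3 with Tpm4 (gap 0.14), with Tmod3 (0.15), with Tmod2 (0.34) and with Lmod2 (-0.15), Tpm4 with Tmod3 (0.01) and with Tmod2 (0.19), Tmod2 with Tmod3 (-0.19), and Tpm1 with Tmod2 (0.02). The lowest adjusted p among them was 0.0686, and such a p does not show that the genes shifted alike.

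**Figure D3:**
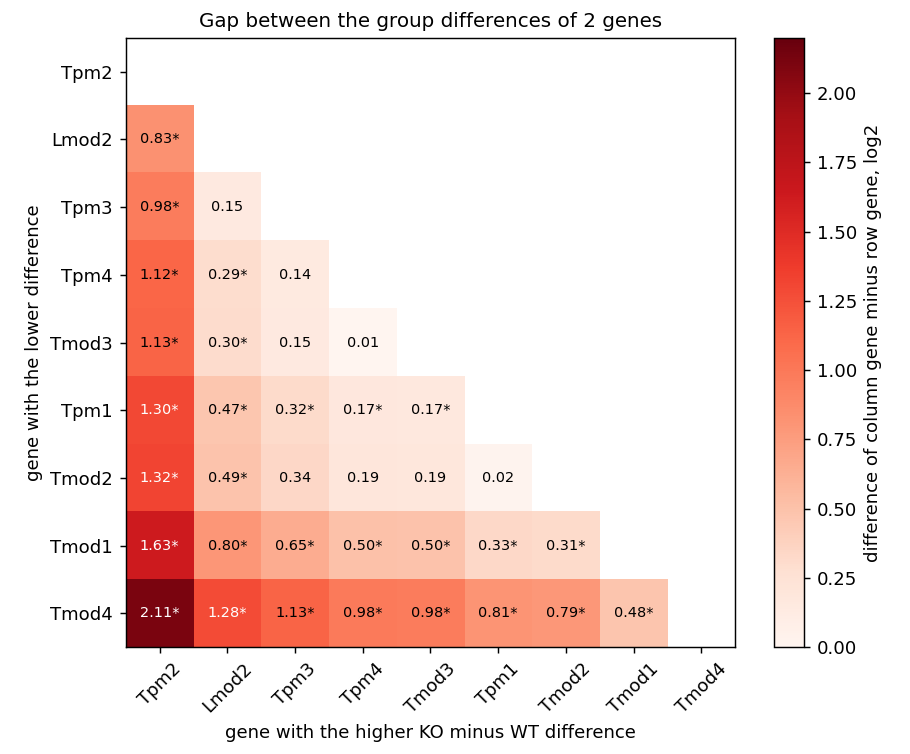
Gap between the KO minus WT differences of 2 genes in log2 units, the gene of the column minus that of the row, with genes ordered from the highest to the lowest difference. Stars mark an adjusted exact permutation p under 0.05; they cover 28 of 36 pairs, with the largest gap, 2.11, between Tpm2 and Tmod4.

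The other parts of the thin filament moved unevenly as well. In a list of 10 actin and troponin genes 2 rose, 2 fell and 6 did not pass, with a median difference of 0.01. Tnnt1, the slow skeletal troponin T, rose by 3.49 and Acta1, skeletal actin, by 1.27. Tnnc1, the troponin C of heart and slow muscle, fell by 0.28. Tnni1, the slow skeletal troponin I, fell by 0.21, but it was dim, with a WT mean of 5.83. The list's mean was 0.39 to 0.44 in KO hearts and -0.03 to 0.04 in WT hearts, and this rise rests on Tnnt1 and Acta1: over the other 8 genes it was -0.08 to -0.04 in KO hearts and -0.01 to 0.01 in WT hearts.

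Among 33 further genes of actin capping, severing and assembly 9 rose, 7 fell and 17 did not pass, with a median difference of 0.05. The mean over this list overlapped between the groups, at -0.03 to 0.04 in KO hearts and -0.06 to 0.08 in WT hearts. The largest rises were those of Twf2 (0.91, SE 0.07), a twinfilin that binds actin monomers and caps filament ends, Xirp2 (0.60, SE 0.06), an actin-binding protein of intercalated discs, and Tmsb4x (0.54, SE 0.06), thymosin beta 4, which holds actin monomers. Klhl41, a kelch protein of muscle, fell by 1.11 (SE 0.06), the profilin gene Pfn2 fell by 0.51 (SE 0.05) and Fhod3, a formin needed for cardiac sarcomeres, fell by 0.47 (SE 0.06). These genes were called in limma at adjusted p-values from 1.23e-06 to 0.000245.

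Marker lists were read beside these genes, since whole hearts hold several cell types, and in bulk tissue fewer cells of a type and less RNA per cell cannot be told apart. The heart label held: all 10 cardiac muscle markers were bright, with WT means of 11.97 (Mybpc3) to 13.50 (Actc1). Of these 10, 3 fell (Ryr2 by 0.53, Myl2 by 0.20 and Mybpc3 by 0.15). The list's mean was -0.11 to -0.09 in KO hearts and -0.01 to 0.02 in WT hearts, so the groups lay close but did not overlap. Macrophage markers all rose, 15 of 15, with a median of 1.31, led by Adgre1 (1.54), Mrc1 (1.53) and Ctss (1.49). Their mean was 1.05 to 1.34 in KO hearts and -0.13 to 0.10 in WT hearts. Macrophages also carry tropomyosins of non-muscle type and Tmod3, and the part of these cells in the rises of Tpm2, Tpm3 and Tmod3 was not tested.

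Smooth muscle markers were read because that tissue contains Tpm2. Of 9 markers Synpo2 rose (0.15), Smtn fell (by 0.40) and 7 did not pass. One of those, the smooth muscle actin gene Acta2, named after its values were seen, differed by 0.49 (limma adjusted p = 0.0526). The list's mean was -0.055 to -0.0018 in KO hearts and -0.20 to 0.20 in WT hearts, a spread in which a shift could be hidden. The part of smooth muscle in the rise of Tpm2 was not tested. Skeletal muscle markers, read because Tmod4, Tpm2 and Tpm3 are genes of that tissue, passed in 0 of the 8 tested. Their differences were -0.14 to 0.09, and 4 more lay under the dim filter. Of those tested, Myl1 had a WT mean of 8.10 and all others were dim, at 4.70 to 6.13, where a fall could be hidden. Atp2a1 (0.09, adjusted p = 0.55) and Myh2 (-0.07, adjusted p = 0.483) had the smallest p-values in limma. Red cell markers, read because of Tmod1, passed in 1 of 5 tested, out of 10 listed. Alas2, with a WT mean of 7.38, fell by 0.33 and its groups did not overlap. The 4 that did not pass were dimmer, with WT means of 4.73 to 5.93 against a dim filter at 4.50. The list's mean, which rests mostly on these dim genes, was -0.07 to 0.09 in KO hearts and -0.05 to 0.06 in WT hearts. The part of red cells in the fall of Tmod1 was not tested.

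Of fibroblast markers 3 of 10 rose, among them Postn (0.64) and Lum (0.38), and Fbln1 fell by 0.49. Endothelial markers passed in 0 of 10, with Vwf (0.15, adjusted p = 0.241) and Emcn (0.11, adjusted p = 0.273) at the smallest p-values in limma. Neuron markers, read because of Tmod2, passed in 0 of 5 tested, with Gap43 (0.25, adjusted p = 0.0834) and Stmn2 (0.15, adjusted p = 0.488) first. Among 4 atrial markers Sln rose (0.76) and 3 did not pass, with a median difference of 0.63. The list's mean was 0.08 to 0.64 in KO hearts, and -0.91 in WT replicate 4 against 0.09 to 0.41 in the other WT hearts, so 1 WT heart stood far apart. Without WT replicate 4 the calls of Tpm2, Tpm3, Lmod2, Tmod1 and Tmod4 held, with Lmod2 at 0.53, and Tmod3 did not pass. WT replicate 4 was the highest WT heart for Lmod2 and the lowest for Tmod4, so its removal enlarges both differences by construction. The part of atrial tissue in these differences was not tested.

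**Figure D4:**
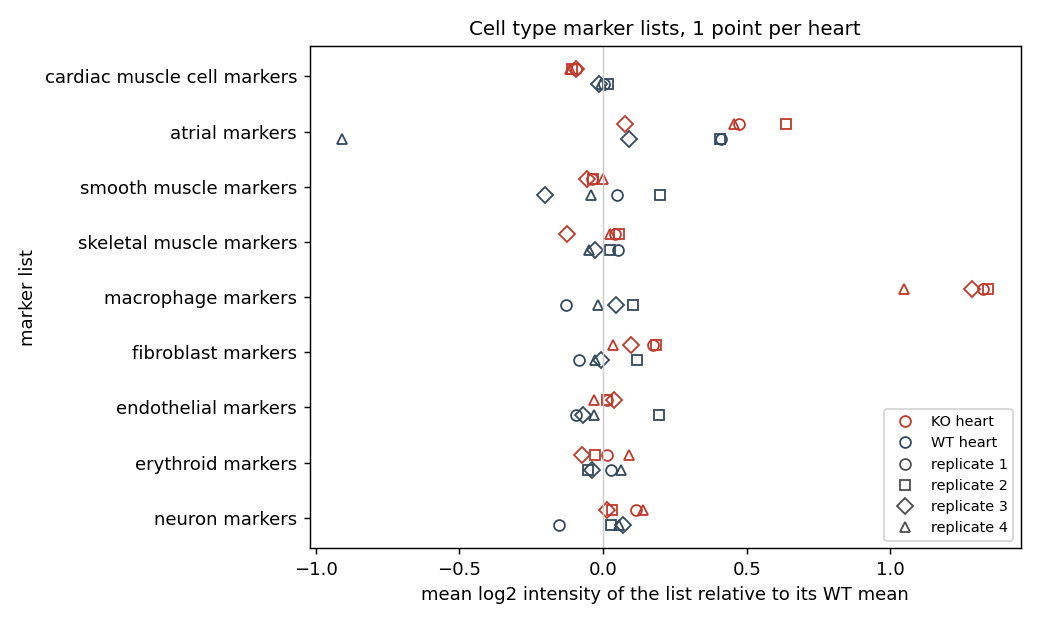
Mean log2 intensity of each cell type marker list relative to its WT mean (horizontal axis), 1 symbol per heart, KO in red above WT in blue. The macrophage list separates the groups, at 1.05 to 1.34 in KO hearts against -0.13 to 0.10 in WT hearts. The cardiac muscle list separates them by a small amount, at -0.11 to -0.09 in KO hearts against -0.01 to 0.02 in WT hearts. The smooth muscle and skeletal muscle lists overlap.

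The genes with the most similar profile over the 8 hearts were taken for each of the 6 genes that passed, by the root mean square difference of log2 values, each gene centred on its WT mean. For Tpm2 these were Gatm (0.06), Pld4 (0.06) and Nckap1l (0.07), and 12 genes lay within 0.1. For Tmod4 they were Mylk4 (0.04), Aldh2 (0.06) and Cacna2d1 (0.06), with 20 genes within 0.1, and for Lmod2 they were Jdp2 (0.05), Atp7a (0.06) and Arhgap20 (0.07), with 37. Smaller differences had many more neighbours: 717 genes lay within 0.1 of Tmod1 (nearest Mpv17, Pgm1 and Kptn), 266 of Tpm3 (nearest Ch25h, Mfsd1 and Ctdsp2) and 1683 of Tmod3 (nearest Fermt2, Sh3kbp1 and Limk1). The profile is a description of these 8 arrays, in which the group difference weighs most.

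**Figure D5:**
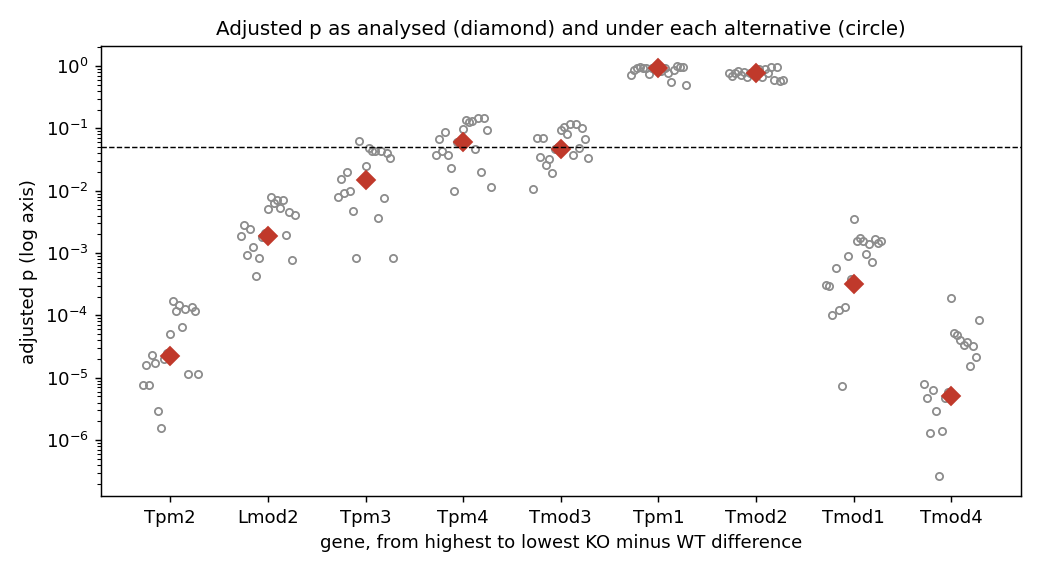
Adjusted p of each gene in limma (vertical log axis) as analysed (red diamonds) and under each of 19 alternatives (grey circles, 1 of them chosen after seeing the data), with the threshold of 0.05 dashed. Tpm2, Lmod2, Tmod1 and Tmod4 stay below it throughout, Tpm3 crosses it once, at 0.0622, and Tpm4 and Tmod3 lie on both sides.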

How the data were processed

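Each of 8 hearts was hybridised to 1 array. Partek and RMA are named in the submitters' processing notes without version or role, and no source used here gives the annotation or genome build behind the values. The authors deposited 1 intensity per transcript cluster and array, on a linear scale as the values showed (3.57 to 16629). Log2 was taken and nothing further was normalised. Scanner files were not analysed here, and detection calls and batches could not be examined.

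Clusters were named through the platform annotation: 21631 of 27541 had 1 symbol, 1317 several (1 of these names Tpm4 with another gene and was not used) and 4593 none. Entrez IDs matched RefSeq for 21544 clusters and changed 0 symbols. The brightest cluster of each gene was kept, and genes under the 25th percentile of mean log2 level (4.50) were left out, leaving 14950.

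KO and WT arrays were compared in R 4.3.3 by a linear model per gene with moderated variances (limma 3.58.1, two-sided, no covariate), with Benjamini-Hochberg adjustment over all genes and a threshold of 0.05. Pairs of genes or clusters were compared by exact permutation of the 8 arrays. Figures were drawn with matplotlib 3.10.9. On simulated data of 14950 genes, with independent noise and 100 genes changed at each size, the fit recovered 90% of 1.5-fold and 99% of 2-fold changes. It made 7 false calls. The simulation does not cover smaller differences, such as those of Lmod2, Tmod1, Tpm3 and Tmod3, or deviations that many genes share in 1 heart. Alternatives covered scaling, offset, dim filter, variance model, array weights, choice of cluster, threshold, replicate block and left-out arrays.

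All 9 genes are named. From each list came up to 3 largest rises and 3 largest falls that passed without overlap or, with none, the 2 smallest p-values. The genes, lists and tests were chosen with earlier results of these data known. The titles call the hearts biological replicates.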

Additional observations from a re-analysis of the deposited data

Results flagged for a closer look

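In 26 sets of 4 hearts (13 clusters in each group), 3 held a heart whose gap to its nearest neighbour was large against the set's whole range by Dixon's criterion, and chance alone picks out about 5% of sets. KO replicate 4 read 10.01 in the brightest cluster of Tpm3, against 10.25 to 10.28 in the other KO hearts. WT replicate 4 read 6.97 in Tpm3 cluster 10560000, against 6.79 to 6.81 in the other WT hearts. WT replicate 1 read 12.62 in Tpm1, against 12.67 to 12.68 in the other WT hearts.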

How the results depend on the processing

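The calls of Tpm2, Tmod4, Tmod1 and Lmod2 held under all 19 alternatives run for each. So did that of Hdac3. The count of the 9 genes that passed ranged from 4 (adjusted p under 0.01) to 7 over 20 alternatives, and from 5 to 7 with single arrays left out. The count of all genes, 3683 as analysed, ranged from 2210 (adjusted p under 0.01) to 4529 (array weights, where 7 of the 9 passed). It was 2869 to 3621 with single arrays left out. Of the members' 4 other clusters 1 passed, and 2 after quantile normalisation. With single arrays left out it was 1 to 2, with 2 without KO replicate 4 and without WT replicate 4. The sign of Tpm1 turned with array weights (0.026) and with both KO replicate 4 and WT replicate 2 left out (0.049), and ran from -0.033 to 0.043 with single arrays left out. That of Tmod2 ran from -0.056 to 0.0043, the last without WT replicate 1. Gene pairs that passed numbered 22 to 29, against 28, and the gap between the Tmod1 clusters was -0.10 to -0.038, with single arrays left out.

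Replicate numbers are shared between the groups, but deviations of same-numbered hearts correlated at -0.038 to 0.076 across genes, so the numbers were not taken to pair animals. With the replicate block 3382 genes and 5 of the 9 passed, and Tmod3 was lost (adjusted p = 0.0935). The cause of these shifts was not tested. Signal over background was not given, which limits what can be said of the dimmer clusters.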
